A study of Mus musculus with 2 samples.

Results

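The genes described here encode proteins that build ribosomes in the nucleolus. The set holds 42 mouse genes: 4 subunits of RNA polymerase I, 6 nucleolar proteins with several roles, 7 proteins of small nucleolar ribonucleoproteins (snoRNPs), 13 factors of the small ribosomal subunit and 12 of the large subunit. Members were chosen by gene symbol, from what the proteins are known to do, with earlier results of these data known. They are 42 of 18193 genes to which the platform annotation tied at least 1 probe set of its own. All 42 had a signal above the floor, the 50th percentile of each array (a signal of 56.7 for MDA-PCa2b medium, 57.7 for PC-3 medium), on both arrays. The same held for 10649 genes in all, which serve as the background below.

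The samples were primary mouse osteoblasts, the bone-forming cells, on day 10 of differentiation in the presence of 10 mM beta-glycerophosphate and 50 µg/ml ascorbic acid. The sample descriptions also list 10% fetal calf serum for both cultures. Every culture had been deprived of serum overnight before it received, for 6 hours, medium conditioned by human prostate cancer cells, either of the MDA-PCa2b line or of the PC-3 line. Both lines come from bone metastases and are known for bone-forming lesions in the first case and bone-destroying lesions in the second. The series asked which osteoblast transcripts respond to factors released by these lines. There was 1 array per medium, so neither a spread between cultures nor a p-value exists. Strain, number of animals and pooling are not given in the sources used here, and cultures free of tumour-cell medium were not analysed here. "Lower" and "higher" therefore compare PC-3 medium with MDA-PCa2b medium and say nothing of either medium against none.

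As background, RNA polymerase I transcribes the ribosomal RNA precursor in the nucleolus, where snoRNPs modify it and separate sets of assembly factors cut, fold and pack it into the small and the large ribosomal subunit. The transcripts of these factors are known to be high in growing cells and to follow the activity of Myc. In osteoblasts ribosome supply bears on the large output of collagen and other secreted matrix proteins.

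Most members gave lower signals with PC-3 medium, by small amounts. The log2 ratio of signals (PC-3 medium minus MDA-PCa2b medium) was below 0 for 34 of 42 members, or 81.0%, against 55.9% of all genes above the floor. The median ratio of the members was -0.18, and that of all genes was -0.039. The middle 50% of the members lay between -0.41 and -0.038, and that of all genes between -0.22 and 0.15. No member differed 2-fold, and few of all genes did: 1.68% were at least 2-fold lower and 1.9% at least 2-fold higher. At least 1.5-fold lower were 6 members (14.3%), with a background of 6.23%, and at least 1.5-fold higher was 1 member (2.38%), with a background of 5.18%. With probe sets averaged, only 3 of the 42 members were at least 1.5-fold lower, with a background of 5.33%. In RNA of whole cultures, less RNA per cell and fewer cells of a kind cannot be told apart. The plot of signals gives both values of each member.

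**Figure D1:**
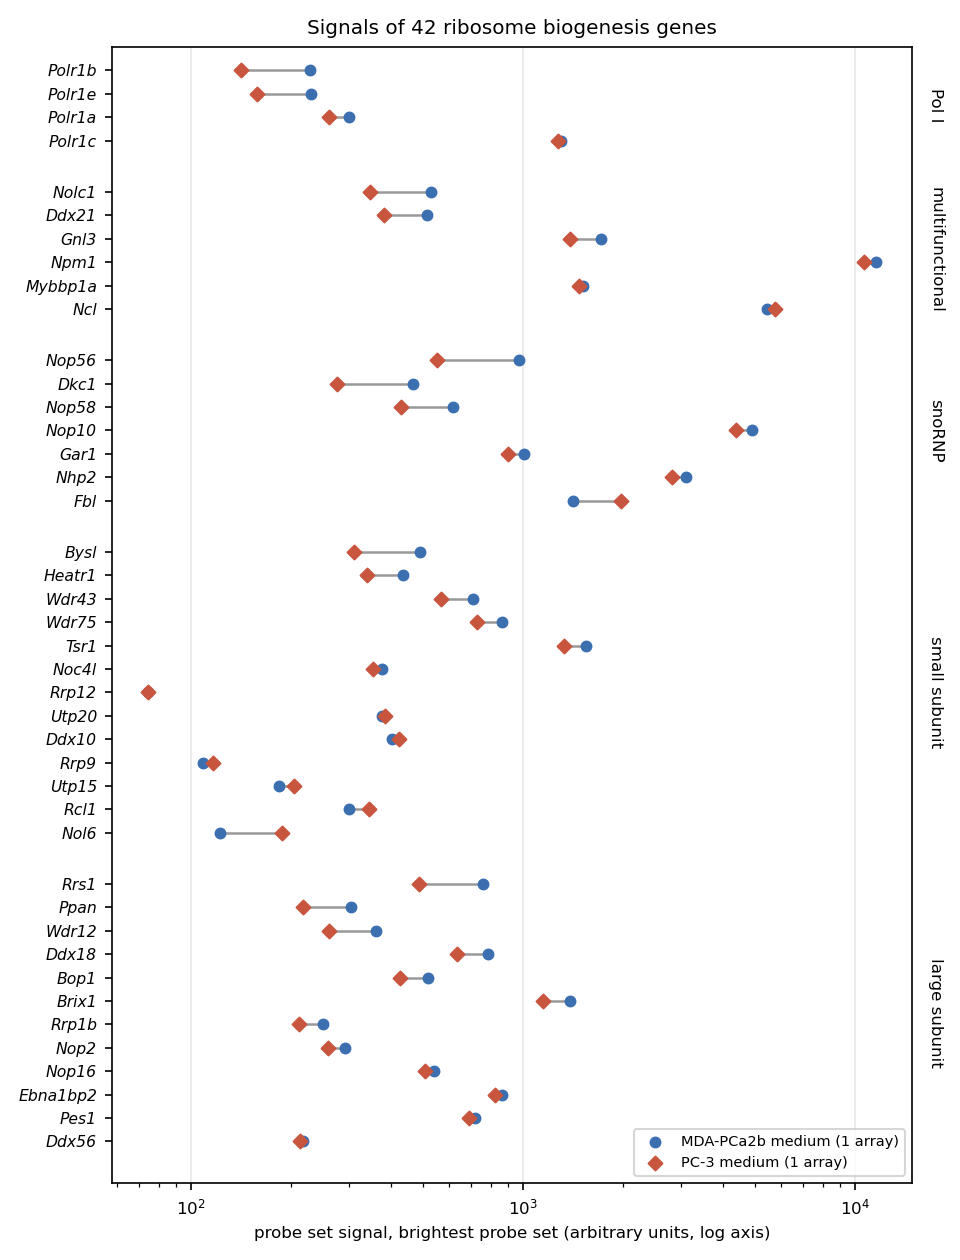
Signals of the brightest probe set of each of the 42 genes (log axis, arbitrary units), 1 circle for MDA-PCa2b medium and 1 diamond for PC-3 medium, grouped by role. The diamond lies to the left of the circle for 34 genes; the widest gap is that of Nop56, from 976 to 552.

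These differences have to be read against the scatter of the method. Where a gene had several probe sets, their log2 ratios spread around the mean of the gene with an SD of 0.24 (1.18-fold, 4921 genes). By this measure 32 of 42 members lay within 2 SD of 0, 9 below that range and 1 above it, against 8.95% and 7.31% of all genes. Of the 42 members, 27 had several probe sets above the floor on both arrays. All probe sets were below 0 for 14 of these genes and above 0 for 2, Fbl and Utp15, while 11 genes had probe sets of both signs. The second brightest probe sets had a median ratio of -0.10, against -0.22 for the brightest of the same genes. Of these second probe sets 17 of 27 were below 0, against 55.9% of all genes by their brightest probe set. Neither second probe sets nor agreement in sign was counted over all genes. The spread between probe sets says nothing of how much separate cultures would vary.

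**Figure D2:**
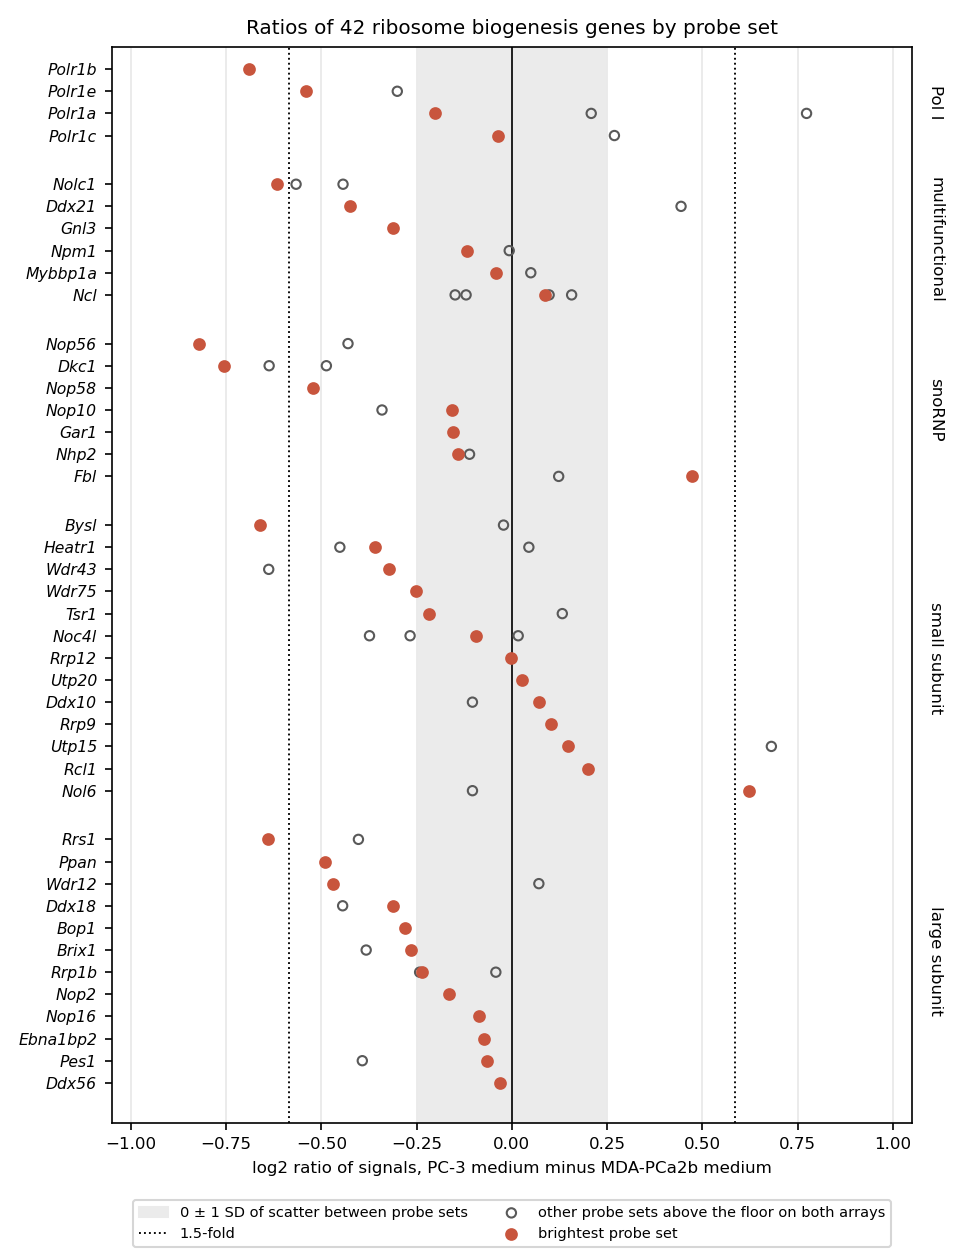
Log2 ratios of the same genes (PC-3 medium minus MDA-PCa2b medium). Filled points are the brightest probe sets and open points the other probe sets above the floor on both arrays; the grey band is 0 ± 1 SD (0.24) of the scatter between probe sets and dotted lines mark 1.5-fold. All 3 points of Dkc1 and of Nolc1 lie on the left of the band, while the open points of Bysl and Nol6 lie inside it.

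The members at least 1.5-fold lower came from all 5 role groups. Nop56, which encodes a scaffold protein of the box C/D snoRNPs, had the lowest ratio, with signals of 976 and 552 (1.77-fold lower). Dkc1, the gene of the pseudouridine synthase dyskerin, was 1.69-fold lower (466 and 276). Polr1b, the second-largest subunit of RNA polymerase I, was 1.61-fold lower (229 and 142). Bysl, which encodes the small-subunit factor bystin, was 1.58-fold lower (492 and 311). Rrs1, whose product helps to place the 5S RNA in the large subunit, was 1.56-fold lower (757 and 486), and Nolc1, the gene of a chaperone of snoRNPs, was 1.53-fold lower (531 and 346). Polr1e came next, just short of the threshold, at 1.46-fold lower (230 and 158).

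The support from second probe sets differed among these genes. Dkc1 gave ratios of -0.75, -0.64 and -0.49, and Nolc1 gave -0.62, -0.57 and -0.44, so every probe set of both genes was low. For Nop56 the brightest probe set, of a type that can match several transcripts, gave -0.82 and the other gave -0.43. Rrs1 likewise gave -0.64 by a probe set of that type and -0.40 by the other. The second probe set of Bysl was near 0, with signals of 167 and 165, and Polr1b had 1 probe set alone.

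The promoter stretches of 4 of these genes are shown together with that of Nop2, because most members were lower together and E-boxes, the letters CACGTG bound by Myc and Max among others, are known from promoters of this class. The stretches come from RefSeq on GRCm38.p6 and end at the last base before the first annotated base of the gene. They are cut where another annotated gene begins; those of Polr1b and Rrs1 are not shown. Capitals mark CACGTG and the core letters of ETS-factor sites, CGGAAG or, on the other strand, CTTCCG.
Nop56 (chr2:130274217-130274366, plus strand): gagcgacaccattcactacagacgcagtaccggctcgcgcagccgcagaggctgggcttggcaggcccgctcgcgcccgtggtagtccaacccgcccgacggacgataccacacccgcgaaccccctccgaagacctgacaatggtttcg
Dkc1 (chrX:75095704-75095853, plus strand): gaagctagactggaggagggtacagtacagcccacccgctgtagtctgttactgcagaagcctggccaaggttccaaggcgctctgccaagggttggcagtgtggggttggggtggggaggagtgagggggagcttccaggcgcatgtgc
Bysl (chr17:47611493-47611584, minus strand): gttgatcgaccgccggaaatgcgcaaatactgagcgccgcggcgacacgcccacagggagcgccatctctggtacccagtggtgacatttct
Nolc1 (chr19:46075697-46075846, plus strand): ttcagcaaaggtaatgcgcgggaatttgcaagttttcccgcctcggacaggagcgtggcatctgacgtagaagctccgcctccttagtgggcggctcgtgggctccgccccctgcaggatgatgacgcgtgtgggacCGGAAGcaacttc
Nop2 (chr6:125131733-125131882, plus strand): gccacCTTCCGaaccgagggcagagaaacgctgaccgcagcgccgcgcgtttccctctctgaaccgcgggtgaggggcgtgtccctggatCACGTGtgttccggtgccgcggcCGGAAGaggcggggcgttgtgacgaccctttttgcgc

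Windows from 250 bases before to 50 after the start were at hand for 36 of 42 members, and were searched on both strands. Among these 36, CACGTG lay before the start in Nop2 alone, 60 bases upstream, and the ratio of this gene was -0.16 (signals of 291 and 259). In Nolc1 the letters CGGAAG begin 13 bases upstream of the start. CACGTG occurred in the windows of 6 of them (16.7%: Mybbp1a, Nop2, Pes1, Tsr1, Utp20 and Wdr43), against 8.09% of 27025 genes with a window and 10.2% of the 14453 that also had a probe set. CGGAAG occurred in 20 members (55.6%), against 18.8% and 27.1%. TCGCGA, which reads the same on both strands, occurred in 4 members (11.1%), against 2.86% and 4.44%. Both comparison sets hold genes below the floor, whereas all members passed it, and no comparison was made with genes above the floor alone.

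The median ratio was -0.12 for the 6 members with CACGTG and -0.24 for the 30 without, and it was -0.19 for the 20 with CGGAAG and -0.22 for the 16 without. For TCGCGA it was -0.13 with (4 members, all below 0) and -0.22 without (32 members). These differences were not tested. The windows of the members held a median of 20 CG pairs, against 16 for genes with a probe set, and each of the motifs holds a CG pair; the part of base composition in these shares was not tested. A match is a description of letters and no sign of binding.

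All 4 subunits of RNA polymerase I had lower signals by their brightest probe set, with a median ratio of -0.37. The ratios ran from -0.69 for Polr1b through -0.54 for Polr1e, which encodes a subunit particular to this polymerase, and -0.20 for Polr1a, the largest subunit, to -0.037 for Polr1c, which RNA polymerase III also uses. Polr1e was low by both of its probe sets (-0.54 and -0.30). The probe sets of Polr1a disagreed: the brightest gave signals of 300 and 261, but the dimmer ones gave ratios of 0.21 and 0.77, the last from signals of 93.5 and 160. Polr1c had signals of 1306 and 1273, with a ratio of 0.27 by its second probe set. With probe sets averaged, Polr1a (0.26) and Polr1c (0.12) were above 0 and the median of the group was -0.15. The low values of this group therefore rest on Polr1b and Polr1e.

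Among proteins with several nucleolar roles, 5 of 6 were below 0, with a median of -0.22. With probe sets averaged the median was -0.029, and Ncl, Ddx21 and Mybbp1a were above 0. Nolc1 was the lowest. Ddx21, an RNA helicase gene that acts in ribosomal RNA transcription and processing, had signals of 513 and 382 (ratio -0.43), but its second probe set went the other way, with signals of 206 and 280 (0.44). Gnl3, the gene of the nucleolar GTP-binding protein nucleostemin, had signals of 1723 and 1388 (-0.31).

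The other genes of this group had ratios near 0. Npm1, which encodes the chaperone nucleophosmin, had signals of 11557 and 10646 (-0.12), and its second probe set gave 7725 and 7687. Ncl, the nucleolin gene, had signals of 5427 and 5758 (0.086), with the other 4 probe sets between -0.15 and 0.16. Mybbp1a, the gene of a Myb-binding protein that acts on ribosomal RNA transcription, had signals of 1520 and 1478 (-0.041). For these 3 genes every probe set lay within 1 SD of the probe set scatter.

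The box C/D snoRNP proteins, which guide ribose methylation, gave opposite values within the same particle. The scaffold genes Nop56 and Nop58 were lower, the second with signals of 615 and 428 (ratio -0.52). Fbl, which encodes the methyltransferase fibrillarin, was higher, with signals of 1421 and 1970 (0.47) and, by its second probe set, 1253 and 1364 (0.12). The 3 core genes thus spanned 1.29 log2 units by their brightest probe sets, but 0.92 with probe sets averaged and 0.64 by single-transcript probe sets alone. For RNA polymerase I the spans were 0.65, 0.95 and 0.96 in the same order.

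Genes of the box H/ACA snoRNPs, which guide pseudouridylation, were all below 0. Dkc1, the catalytic subunit, stood at -0.75, and its partners Nop10, Gar1 and Nhp2 stood at -0.16, -0.15 and -0.14. Their signals were 4907 and 4398 for Nop10, 1007 and 905 for Gar1, and 3109 and 2817 for Nhp2. The second probe set of Nop10 gave 2685 and 2120 (-0.34) and that of Nhp2 -0.11. By brightest probe sets the partners differed from each other by less than the probe set scatter and Dkc1 was lower than all of them; its dimmest probe set (-0.49) was within 1 SD of the second of Nop10.

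Factors of the small subunit were split. Their median ratio was -0.0026, with 7 of 13 below 0, close to the 55.9% of all genes. With the floor at percentile 75, which leaves the brighter genes, the median was -0.22, near the -0.26 of the large-subunit factors under that floor. Bysl was the lowest at -0.66. Heatr1, Wdr43 and Wdr75, which belong with Utp15 to the subcomplex that joins the ribosomal RNA precursor first, stood at -0.36, -0.32 and -0.25. Utp15 itself was higher, with signals of 185 and 205 (0.15) and, by a dimmer probe set, 113 and 181 (0.68). Wdr43 was lower by both probe sets, the second of which gave 468 and 301 (-0.64), while the dimmest probe set of Heatr1 gave 66.7 and 68.8.

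The later and the remaining small-subunit factors stayed near 0 with few exceptions. Tsr1, a late assembly factor gene, had signals of 1548 and 1331 (-0.22), but its second probe set gave 461 and 506 (0.13). Noc4l had signals of 377 and 353 (-0.095), with other probe sets from -0.37 to 0.017. Rrp12, a factor of late maturation and export, had the dimmest signals of all members, 74.5 and 74.4, not far above the floor. Utp20 (377 and 384), Ddx10, a helicase gene (404 and 425), and Rrp9, whose product binds the U3 snoRNA (109 and 117), had ratios of 0.026, 0.072 and 0.10. Rcl1 had signals of 300 and 344 (0.20).

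Nol6, the gene of a small-subunit processome protein, was the only member at least 1.5-fold higher by its brightest probe set, with signals of 122 and 188 (1.54-fold). Its other probe set, the sole one of the type meant for a single transcript, gave 138 and 128 (ratio -0.10), so the direction depended on the probe set.

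By their brightest probe sets 12 of 12 factors of the large subunit were below 0, against 55.9% of all genes. Their median was -0.25. The difference from the small-subunit group was not tested. Rrs1 was the lowest at -0.64 and Ddx56, a helicase gene, the highest at -0.032 (218 and 213). Ppan, a gene of early large-subunit assembly, had signals of 305 and 217 (-0.49). Pes1, Bop1 and Wdr12 encode the 3 proteins of the PeBoW complex, needed for processing of the large-subunit RNAs. Wdr12 had signals of 361 and 261 (-0.47), Bop1 of 518 and 426 (-0.28) and Pes1 of 719 and 687 (-0.066), with -0.39 by the second probe set of Pes1 and 0.071 by a dim one of Wdr12.

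Other large-subunit genes lay between these values. The helicase gene Ddx18 (786 and 633) and the assembly factor gene Brix1 (1383 and 1152) had ratios of -0.31 and -0.26, and their second probe sets gave -0.44 and -0.38. Rrp1b had signals of 250 and 212 (-0.24), with other probe sets at -0.042 and -0.24. Nop16 (540 and 509) and Ebna1bp2 (868 and 825) stood at -0.085 and -0.074. The ratios of these last genes, and that of Nop2, were smaller than the probe set scatter.

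The members at least 1.5-fold lower had mean signals from 185 (Polr1b) to 764 (Nop56). Of 10 members with a mean signal above 1000, none was 1.5-fold lower, and 8 were below 0, with ratios from -0.31 (Gnl3) to 0.47 (Fbl). Over all genes of that brightness 58.1% were below 0 and 3.07% at least 1.5-fold lower. Of the 32 members with a mean signal of 1000 or less, 26 were below 0 (81.2%), against 55.1% of all such genes, and 6 at least 1.5-fold lower (18.8%), against 7.41%. The median ratios were -0.13 and -0.24 for the brighter and dimmer members, and -0.040 and -0.039 for all genes of the same brightness. A probe set signal also depends on the probes, so levels of different genes cannot be compared through it.

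**Figure D3:**
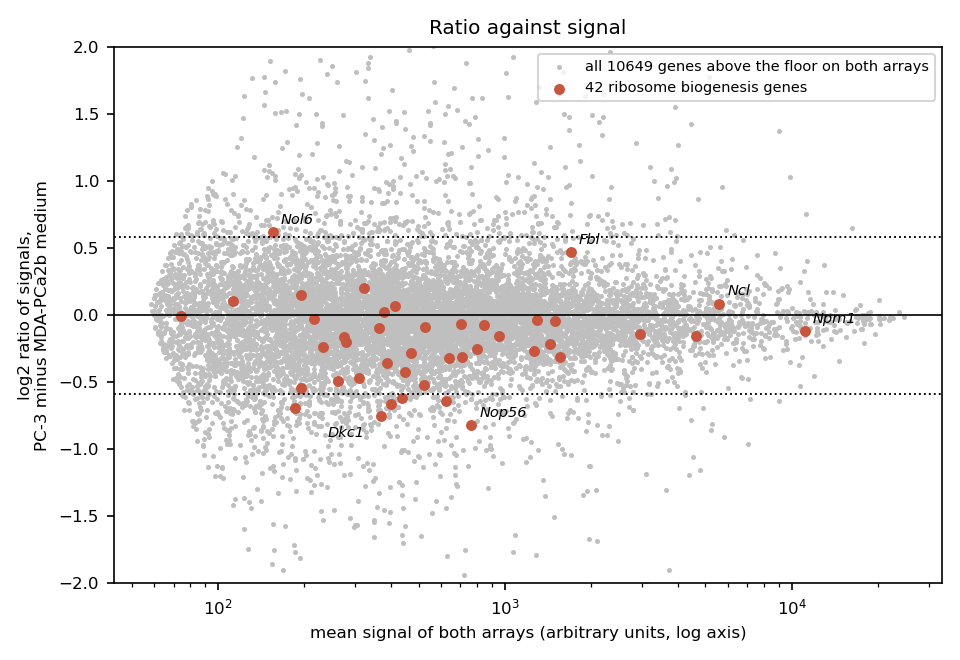
Log2 ratio against the mean signal of both arrays (log axis) for 10649 genes (grey) and the 42 members (red); dotted lines mark 1.5-fold, and 51 genes beyond 2 log2 units are outside the plot. Members above a mean signal of 1000 stay inside the dotted lines, and the 6 below the lower line are all dimmer than that.

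Further genes of the same pathway had ratios nearer to the background. Of 43 other small-subunit factors above the floor on both arrays, 31 (72.1%) were below 0 and none was 1.5-fold different. Their median was -0.090. Their extremes were the methyltransferase gene Dimt1 (344 and 243, -0.50) and the endonuclease gene Nob1 (262 and 322, 0.29). Of 39 other large-subunit factors, 24 (61.5%) were below 0 and the median was -0.13. Past 1.5-fold were 2 genes on the lower side and 1 on the higher. The lower ones were Nifk (519 and 335, -0.63) and Rpf2, the partner gene of Rrs1 (342 and 198, -0.79), for which other probe sets gave -0.56 and 0.85. The higher one was Eif6, an anti-association factor gene (964 and 1521, 0.66), but its second probe set gave -0.28. Ratios of the 14 other RNA polymerase I genes were between -0.16 (Ubtf) and 0.35 (Polr1h), with a median of 0.011 and 6 below 0; none of them differed 1.5-fold.

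Lists for other parts of protein synthesis had medians nearer to 0, apart from the RNA exosome. Their shares of genes below 0 were not all smaller than the 81.0% of the members, with 55.9% for all genes. They were 83.7% for cytosolic ribosomal proteins and 80.6% for translation initiation factors. For mitochondrial ribosomal proteins, RNA polymerase III genes and the exosome they were 66.2%, 65% and 69.2%. Of 79 cytosolic ribosomal protein genes listed, 35 had no probe set of their own and 43 were above the floor on both arrays. Of these 43, 36 were below 0, but their median of -0.026 was above the -0.039 of all genes. None was 1.5-fold different. The lowest was Rpl12 (333 and 238, -0.48) and the highest Rpl39 (197 and 210, 0.091), each with 1 probe set. The 74 mitochondrial ribosomal protein genes had a median of -0.067, and the only 1.5-fold difference was that of Mrps6 (2078 and 1222, -0.77); the highest was Mrpl38 (260 and 357, 0.46). The 31 translation initiation factor genes had a median of -0.055, from -0.29 for Eif2b3 to 0.38 for the cap-binding protein gene Eif4e, and none differed 1.5-fold. RNA polymerase III genes had a median of -0.075 (20 genes), with 1 at least 1.5-fold lower, Polr3e (456 and 280, -0.71), and the repressor gene Maf1 the highest at 0.24. Genes of the exosome, which trims ribosomal RNA precursors, had a median of -0.18 (13 genes), from -0.50 for Exosc2 to 0.17 for Exosc9, and none differed 1.5-fold.

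**Figure D4:**
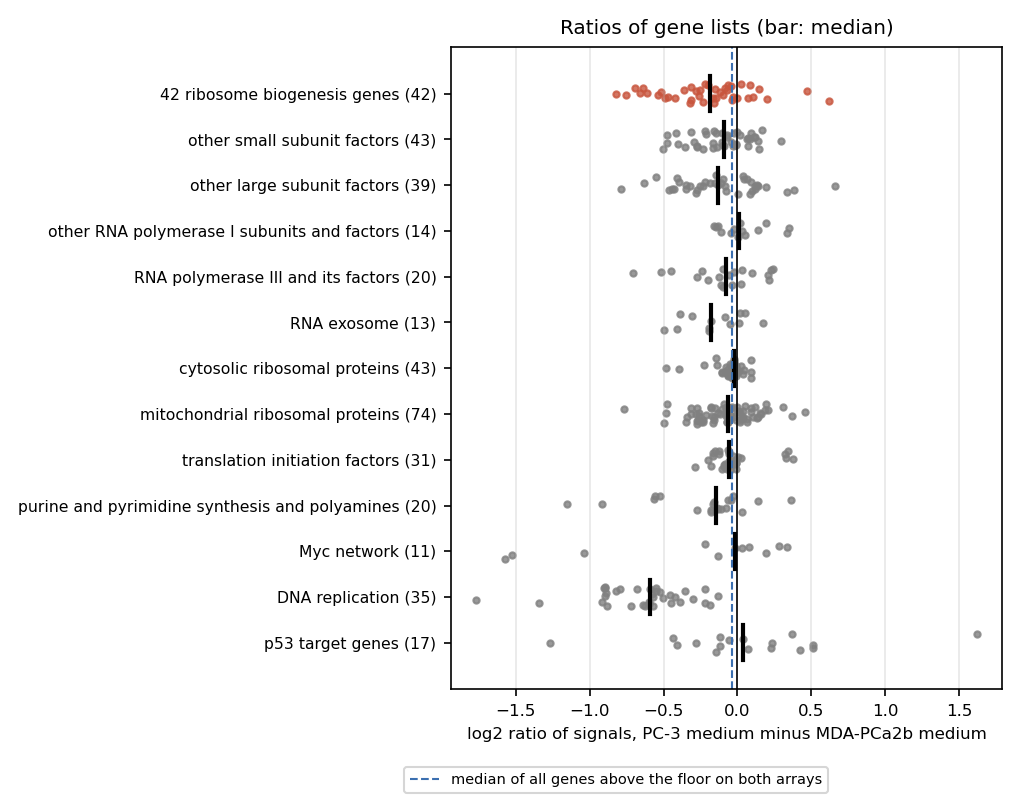
Log2 ratios of the 42 genes and of 12 other gene lists; each point is a gene above the floor on both arrays (number in brackets), black bars are medians and the dashed line is the median of all genes (-0.039). The bar of the 42 genes is at -0.18, those of cytosolic ribosomal proteins and DNA replication at -0.026 and -0.59.

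The Myc network had a median of -0.017, with 6 of 11 measured genes below 0. Myc (802 and 390), Mycn (257 and 86.4) and Max (345 and 119) had ratios of -1.04, -1.57 and -1.53. The other 8 measured genes lay within 1.5-fold, up to 0.33 for Mlxip. Mycn stood at -0.84 with probe sets averaged. That mean takes in a bound of -0.12 from a second probe set, below the floor in PC-3 medium (62.6 and 9.0). Max stood at -0.20, as a bound, with the floor at percentile 75, which its signal in PC-3 medium did not pass. Of 20 genes for purine, pyrimidine and polyamine synthesis, 17 were below 0 and 2 past 1.5-fold, and the median was -0.15. These were the nucleoside diphosphate kinase gene Nme1 (6622 and 2969, -1.16, with -0.31 by its second probe set) and Ppat, the first enzyme of purine synthesis (188 and 99.7, -0.92, with -0.34 by its second probe set); the highest was Ctps1 at 0.36.

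DNA replication genes were lower by more than the nucleolar genes. All 35 were below 0 and 18 were past 1.5-fold, with a median of -0.59. The lowest were Cdc6 (286 and 84.0, -1.77), Ccne2 (628 and 248, -1.34) and Mcm6 (1547 and 820, -0.92). Tyms passed the floor only in MDA-PCa2b medium (61.8), so its ratio is a bound. The part of proliferation in the ratios of the nucleolar genes was not tested. Target genes of p53, known to respond when ribosome assembly is disturbed, had a median of 0.037 over 17 genes, with the death receptor gene Fas higher (408 and 1256, 1.62) and Sesn2 lower (305 and 127, -1.27, with -0.22 by its second probe set).

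The 3'/5' signal ratios of both arrays were close, at 1.399 and 1.504 for beta-actin and 0.73 and 0.72 for Gapdh. Their mean signal, trimmed by 2% at either end, was 300.0 on both. Scaling of whole arrays to a common target gives such equality, so it is no measure of how alike the arrays were. The cell type markers were not all alike. Summed signals given for them cover every marker with a probe set of its own, whether above the floor or not. All 9 osteoblast markers with a probe set of their own passed the floor, with summed signals of 97855 and 89061 that the brightest genes dominate: Col1a1, Col1a2, Sparc, Ibsp and Phex had ratios from -0.12 to -0.0041. All 9 were below 0 and 3 past 1.5-fold: Ifitm5 (4442 and 741), Dmp1 (1765 and 426) and Sp7 (1469 and 919). Of 12 macrophage and osteoclast markers 11 passed the floor on both arrays, with summed signals of 25568 and 26109, and 3 were below 0; the largest ratio was that of Cd68 (0.59). Of 8 chondrocyte markers 7 did so (13783 and 13198), with a median of -0.10 and Col10a1 the lowest (204 and 78.1, -1.39). Of 5 adipocyte markers 3 did so (3082 and 2810), with a median of 0.47, where Fabp4 (265 and 522) and Adipoq (101 and 139) were higher and Lpl (2652 and 2107) lower. Endothelial markers were below the floor on both arrays for 7 of 8 genes, Pecam1 and Cdh5 included (summed signals of 258 and 402); the other, Cd34, had signals of 129 and 296. No skeletal muscle marker of 8 was above it on both (233 and 262). The part of osteoblast maturity and of these other cells in the ratios of the nucleolar genes was not tested.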

How the data were processed

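Each culture gave 5 µg of total RNA for 1 Affymetrix array. The authors deposited a linear intensity per probe set, computed by GCOS 1.4 with MAS5 according to the labels and the submitters' processing notes; scaling target and detection calls are not given in the sources used here. Groups follow the source descriptions, since the PC-3 title also carries the prefix "MDA". Of 45101 probe sets, 34945 outside the 64 controls had 1 gene symbol; 932 with several and 9211 without were not used. Entrez identifiers, checked against a GRCm38.p6 gene table, updated 0 symbols, and 5 list genes were matched through older symbols.

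Signals under the 50th percentile of their array were raised to it before log2 ratios were taken (Python 3.11.15, pandas 2.3.3, numpy 2.4.6). A gene was represented by its brightest probe set. A gene at the floor on 1 array has a bound as its ratio. Where probe sets were averaged, the mean took in probe sets with a bound. The number of arrays limits the precision, and no test was possible. Differences were called at 1.5-fold. Every member is given; in other lists, at most the 3 lowest and 3 highest genes past 1.5-fold, or the lowest and highest where none was. Members, lists and thresholds were chosen with earlier results of these data known. As alternatives the floor was placed at percentile 25 or 75 or replaced by log2(signal + 16), arrays were quantile normalised, the median ratio of all genes was set to 0, probe sets were averaged, only single-transcript probe sets (no suffix _s_at, _x_at or _a_at) were kept, or the threshold was changed to 2-fold or to signals at most 0.8 times the other. Scripts were tested on simulated data.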

Additional observations from a re-analysis of the deposited data

How the results depend on the processing

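The median of the members stayed below 0 under all 7 alternatives for the values (-0.20 to -0.14). It covers 29 members with the percentile 75 floor, 37 with single-transcript probe sets (-0.20) and 42 otherwise. With the median of all genes set to 0 or with probe sets averaged, 31 of 42 genes (73.8%) were below 0, against 50.0% and 53.6% of all genes. No paired analysis was possible because each group has 1 sample.

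The count of members at least 1.5-fold lower was 3 of 42 with probe sets averaged, against 5.33% of all genes. It was 4 of 29 with the percentile 75 floor, against 3.44%. It was 12 of 42 (28.6%) at the looser threshold (signals at most 0.8 times), against 16.7%, and 0 at 2-fold. The count higher was 2 at the looser threshold and 0 at 2-fold. It was also 0 with the percentile 75 floor, log2(signal + 16), averaged probe sets or single-transcript probe sets. The percentile 75 floor gave -0.037 as the median of RNA polymerase I members, from 1 gene, -0.22 for small-subunit members and 0.0013 for other large-subunit factors. With the median of all genes set to 0, small-subunit members stood at 0.036, cytosolic ribosomal proteins at 0.013 and the Myc network at 0.022. Other RNA polymerase I genes stood at -0.011 with averaged and -0.039 with single-transcript probe sets, which gave the Myc network 0.069. The p53 targets stood at -0.010 with the percentile 25 floor and -0.012 with log2(signal + 16). Among genes past 1.5-fold, single-transcript probe sets turned the sign of Nol6 (-0.10), Rpf2 (0.85) and Eif6 (-0.28). They also turned the members Polr1c (0.27) and Mybbp1a (0.050), averaging turned Polr1a (0.26), Ddx21 (0.0089), Polr1c (0.12), Mybbp1a and Ddx10, and setting the median of all genes to 0 turned Polr1c, Rrp12 and Ddx56; the percentile 75 floor turned Polr1a, whose ratio is then a bound. Moves by more than the probe set scatter came from averaging (6 of 28 ratios that changed), single-transcript probe sets (4 of 10) and the percentile 75 floor (1 of 4).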
